A study of Mus musculus with 16 samples.

Results

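The 6 genes described here, Saa3, Orm1, Orm2, Hp, Lrg1 and Steap4, encode acute-phase and related inflammatory proteins that neutrophils transcribe. They were taken by name from the 49315 genes of each count table, matched by Ensembl gene identifier. They were selected with the measured rises in view, since Saa3 and Orm1 were among the genes that rose most after surgery, and their change with time is therefore given as a description and carries no test. The comparisons between genotypes and between tissues were not used to choose them and were tested. All 6 of the 6 genes passed the filter on low counts in each of the 12 comparisons, a filter that a gene can pass through the group in which it is high.

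The cells were neutrophils, gated on Ly6G, CD11b and CD45.2, of blood or lung, taken from mice labelled WT or αD KO that were either untreated (0 h) or 12 h after cecal ligation and puncture (CLP), a surgery that causes abdominal sepsis with many bacterial species. The surgery was done in male mice aged 8 to 12 weeks, and the αD KO mice came from the Jackson Laboratory. αD is the α chain of the integrin αDβ2 and is encoded by Itgad, and the nature of the deleted allele is not given in the sources used here. Each of the 8 groups held 2 samples and 3 libraries, because sample 1 of every group has 2 count files (libraries 1a and 1b) and sample 2 has 1 (library 2), which makes 24 libraries. The study describes its RNA-seq as done in triplicate, but the labels do not tell whether 1a and 1b are different mice. A p-value over 3 libraries therefore measures the spread between libraries, which may be technical.

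Total counts ran from 5753476 to 29984954 per library, with a median of 18741144. Neutrophil markers (Ly6g, S100a8, S100a9, Csf3r, Cxcr2, Itgam, Retnlg and Mmp9) were detected in every group and summed to between 29133 and 196626 CPM (library-scaled counts, normalised with TMM factors). Itgad went against the genotype labels. With the αD KO label its lowest and highest values over 12 libraries were 12.5 and 102 CPM, whereas the 12 WT libraries held only 0.0583 to 3.67 CPM, a difference that edgeR called in blood at 0 h (log2 fold change 4.61, SE 0.33, adjusted p = 0.0209) and not in the other 3 comparisons of the labels, where the log2 fold change was 4.39 to 7.28. Of the 5 annotated genes that overlap Itgad on chr7:128154376-128223816, 4 lie on the other strand, and reads of these genes cannot be told apart without strand. Genotypes are therefore named below only as labels, and every direction between genotypes rests on those labels. The 1b libraries had counts for 29162 to 38844 genes and the other libraries for 17132 to 32666.

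Among the lung libraries, 3 stood apart from their groups. On a scale set by the 1337 other genes called between WT lung at 0 h (position 0) and at 12 h (position 1), library 2 labelled αD KO lung 0 h lay at 1.03. Libraries 1a and 2 labelled αD KO lung 12 h lay at 0.1 and 0.19 on that scale, against 0.82 for library 1b of the same group. The WT lung libraries lay between -0.04 and 0.11 at 0 h and between 0.66 and 1.21 at 12 h, each placed without itself. These 3 libraries thus went against their time labels, and the fold changes of the 6 genes that rest on them are given with and without them. Since the libraries were set apart by genes that differ with time, a change with time computed without them is a description.

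The acute-phase response is the change in plasma proteins that follows infection or injury, driven above all by interleukin 6 and interleukin 1 acting on the liver through STAT3, C/EBP and NF-κB transcription factors. Several of these proteins are also made outside the liver, and neutrophils store haptoglobin and leucine-rich α2-glycoprotein in their granules. In a bulk sample of sorted cells, fewer cells of a type and less RNA per cell cannot be told apart.

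By role, Saa3 encodes a serum amyloid A, a lipid-binding apolipoprotein made mainly outside the liver. Orm1 and Orm2 encode orosomucoids (α1-acid glycoproteins), lipocalins that carry small molecules in plasma. Hp encodes haptoglobin, which captures free haemoglobin, and Lrg1 encodes leucine-rich α2-glycoprotein, which binds cytochrome c and acts on TGF-β signalling. Steap4 encodes a metalloreductase of iron and copper in cell membranes. On the GRCm38 build of the count files, Saa3 lies on chr7:46711998-46715700 on the minus strand, Hp on chr8:109575128-109579172 on the minus strand, Lrg1 on chr17:56119680-56121946 on the minus strand and Steap4 on chr5:7960457-7982213 on the plus strand. Orm1 (chr4:63344560-63348163), Orm3 (chr4:63356162-63359511) and Orm2 (chr4:63362449-63365878) follow each other on the plus strand of chromosome 4. No annotated gene of GENCODE M21 overlapped any of the 6 genes on either strand, and the position of Lrg1 in the count files differed from that in GENCODE M21.

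The Orm genes share much of their sequence, which matters here because only uniquely mapped reads in exons were counted. The coding sequence of Orm1 (621 bases) was 89.9% identical to that of Orm2 and 86.0% identical to that of Orm3 (618 bases). The longest run of bases that the Orm1 and Orm2 transcripts shared was 141, and none of the 626 windows of 150 bases in Orm1 occurred whole in Orm2 or Orm3. The stretch of 60 coding bases within 1 exon that set Orm1 apart most from both of the others is its start, coding bases 1 to 60, at chr4:63344598-63344657 for Orm1, chr4:63362487-63362546 for Orm2 and chr4:63356200-63356259 for Orm3, all on the plus strand of GRCm38. Capitals mark the 12 columns at which the 3 genes are not all alike, and Orm2 and Orm3 each differ from Orm1 at 8 of the 60 bases.
Orm1: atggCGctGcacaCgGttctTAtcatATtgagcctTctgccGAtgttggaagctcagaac
Orm2: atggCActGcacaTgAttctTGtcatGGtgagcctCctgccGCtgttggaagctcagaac
Orm3: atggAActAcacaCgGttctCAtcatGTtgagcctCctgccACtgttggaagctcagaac
Reads were sequenced at 150 bases from both ends, and a read trimmed to less than a shared run could fall in it whole and then not be counted as unique. How many reads this touched was not tested, and the low levels of Orm2 and Orm3 are uncertain to that extent. Saa3 was further from its relatives, with a coding sequence 77.6% identical to Saa1 and 76.8% to Saa2.

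The 250 bases before the transcription start are shown for the genes that the RefSeq promoter table of GRCm38.p6 holds, because the members did not all move in the same way. Of the 6 genes 4 matched, and Orm1 and Hp did not. Capitals mark matches on either strand to TTNNGNAA (a C/EBP pattern), TTCNNNGAA (a STAT pattern) or GGG and TTCC with any 3 bases between them (an NF-κB pattern). Of the 32851 promoters in the table, 36.8% held the first pattern, 7.02% the second and 4.65% the third in the same window. Saa3, with the largest log2 fold change in WT lung, is read from chr7:46715677-46715926 on the minus strand, and Lrg1 from chr17:56121947-56122196 on the minus strand. Orm2 is read from chr4:63362199-63362448 and Steap4 from chr5:7960222-7960471, both on the plus strand, each before the start that RefSeq gives.
Saa3: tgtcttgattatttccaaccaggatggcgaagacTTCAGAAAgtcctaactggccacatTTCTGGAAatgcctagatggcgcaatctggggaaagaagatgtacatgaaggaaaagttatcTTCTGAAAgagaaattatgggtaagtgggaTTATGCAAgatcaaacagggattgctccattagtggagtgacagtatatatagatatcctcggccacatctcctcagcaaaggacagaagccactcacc
Lrg1: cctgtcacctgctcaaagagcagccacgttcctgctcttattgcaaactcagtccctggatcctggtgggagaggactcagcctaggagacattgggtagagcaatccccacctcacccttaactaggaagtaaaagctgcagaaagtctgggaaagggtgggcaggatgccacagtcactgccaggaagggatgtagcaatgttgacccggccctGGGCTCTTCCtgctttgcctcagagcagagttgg
Orm2: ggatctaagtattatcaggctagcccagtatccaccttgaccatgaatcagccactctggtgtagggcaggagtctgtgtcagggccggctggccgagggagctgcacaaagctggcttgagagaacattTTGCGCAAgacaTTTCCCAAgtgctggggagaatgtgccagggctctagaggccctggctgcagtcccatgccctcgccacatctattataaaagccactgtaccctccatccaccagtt
Steap4: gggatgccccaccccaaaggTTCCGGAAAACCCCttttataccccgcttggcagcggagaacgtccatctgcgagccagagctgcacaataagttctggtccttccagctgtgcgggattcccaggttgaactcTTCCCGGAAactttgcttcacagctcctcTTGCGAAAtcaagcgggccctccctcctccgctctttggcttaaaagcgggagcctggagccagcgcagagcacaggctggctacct
The Saa3 window held 4 matches to the C/EBP pattern, at 216, 191, 129 and 99 bases before the start, and none to the other patterns. The Orm2 window held this pattern at 120 and 108 bases before the start, and the Lrg1 window held only the NF-κB pattern, at 34 bases. In the Steap4 window all 3 patterns matched, with the C/EBP match at 230 bases overlapping the NF-κB match at 226 bases, the STAT match at 116 bases and a further C/EBP match at 87 bases. A match is a string of letters, and binding was not measured.

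Saa3 was close to undetected at 0 h and among the abundant transcripts at 12 h. In WT blood the libraries 1a, 1b and 2 held 1.38, 0.634 and 0.59 CPM at 0 h and 325, 24.6 and 263 CPM at 12 h. In WT lung they held 0.488, 0.362 and 1.22 CPM at 0 h and 1581, 170 and 474 CPM at 12 h. Every WT library at 12 h was above every WT library at 0 h, and library 1b was the lowest at 12 h in both tissues. In blood labelled αD KO, Saa3 was 0.842, 0.424 and 4.12 CPM at 0 h and 255, 89.5 and 357 CPM at 12 h, again without overlap. The fitted log2 fold changes were 7.54 (SE 0.99) in WT blood, 9.88 (SE 1.02) in WT lung and 6.78 (SE 0.9) in blood labelled αD KO. Without 1 library at a time they ran from 7.16 to 8.15, from 8.67 to 10.67 and from 6.41 to 8.3 in the same order. With the αD KO label in lung, Saa3 was 2.13, 1.12 and 908 CPM at 0 h and 1.82, 315 and 2.81 CPM at 12 h. The 3 libraries that stood apart carried the value of the other time point, and the log2 fold change was -1.07 (SE 2.44) with them and 7.64 (SE 0.8) without them, a fit that leaves 1 library at 12 h and assumes that it varies like the rest. Without these 3 libraries, Saa3 ranged from 0.362 to 4.12 CPM over 11 libraries at 0 h and from 24.6 to 1581 CPM over 10 libraries at 12 h.

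Orm1 moved with Saa3. In WT blood it was 3.74, 0.543 and 1.64 CPM at 0 h and 709, 143 and 429 CPM at 12 h in libraries 1a, 1b and 2. In WT lung it was 1.31, 0.258 and 1.74 CPM at 0 h and 1784, 105 and 850 CPM at 12 h. The 12 h libraries lay above all 0 h libraries in both tissues, and the log2 fold changes were 7.47 (SE 0.84) in blood and 9.48 (SE 1.2) in lung. In blood labelled αD KO the values were 5.09, 0.635 and 10.8 CPM at 0 h and 966, 231 and 1029 CPM at 12 h, a log2 fold change of 6.88 (SE 0.99). Without 1 library at a time the log2 fold changes ran from 7.0 to 8.31 in WT blood, from 8.53 to 10.04 in WT lung and from 6.4 to 7.85 in blood labelled αD KO. In lung labelled αD KO they were 8.85, 0.447 and 917 CPM at 0 h and 3.76, 188 and 4.63 CPM at 12 h. The log2 fold change there was -1.8 (SE 2.28) with all libraries and 5.36 (SE 0.71) without the 3 that stood apart. Orm1 was the gene most like Saa3 among the 6, with a Pearson r of 0.972 over the 24 libraries on log2 CPM, a value that follows from the split into low and high libraries and from the groups that the libraries share.

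Orm2, which lies near Orm1 with Orm3 between them and encodes a close relative of the Orm1 protein, was low throughout. Its group means lay between 0.888 CPM (SD 0.0546, n = 3, lung labelled αD KO at 12 h) and 6.26 CPM (SD 3.95, n = 3, blood labelled αD KO at 12 h). The highest single value was 11.8 CPM in library 1a of WT lung at 12 h, where Orm1 was 1784 CPM, and library 1b of that group held the lowest, 0.321 CPM from 4 counts. Its log2 fold changes with time were 0.59 (SE 0.56) in WT blood, 0.93 (SE 0.89) in WT lung and 1.87 (SE 0.67) in blood labelled αD KO, and the libraries of the 2 times overlapped in all 3. In WT lung the value ran from -0.13 to 1.37 without 1 library at a time. In lung labelled αD KO the change was -1.54 (SE 1), and 0.36 (SE 1.51) without the libraries that stood apart. Orm3 was as low, with group means from 0.724 to 3.26 CPM.

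The shares within the Orm family follow from the rise for which Orm1 was chosen and are given as a description. Orm1 held between 10.4% and 87.0% of the counts of Orm1, Orm2 and Orm3 in the 0 h libraries other than library 2 of lung labelled αD KO, and between 97.7% and 99.4% in the 12 h libraries other than 1a and 2 of that tissue and label. The 95% Wilson intervals were 4.53% to 22.2% for the lowest of these 0 h shares, in WT lung library 1b, and 97.1% to 98.2% for the lowest of the 12 h shares, in WT blood library 1b. The libraries that stood apart held 99.0% (98.8% to 99.1%) at 0 h and 68.0% (58.3% to 76.3%) and 70.9% (63.6% to 77.3%) at 12 h. These intervals cover counting error only, since PCR copies were not told apart. Saa3 held between 93.5% (91.1% to 95.3%) and 99.7% (99.6% to 99.9%) of the Saa1, Saa2 and Saa3 counts at 12 h outside the libraries that stood apart. In the libraries that stood apart the Saa3 share was 98.5% (98.3% to 98.7%) at 0 h and 70.2% (56.0% to 81.3%) and 83.5% (74.2% to 89.9%) at 12 h. In the other 0 h libraries the family had few counts, and in WT blood alone the share ran from 17.5% (8.75% to 31.9%) in library 1b to all of the 38 counts in library 1a, where the interval began at 90.8%.

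**Figure D1:**
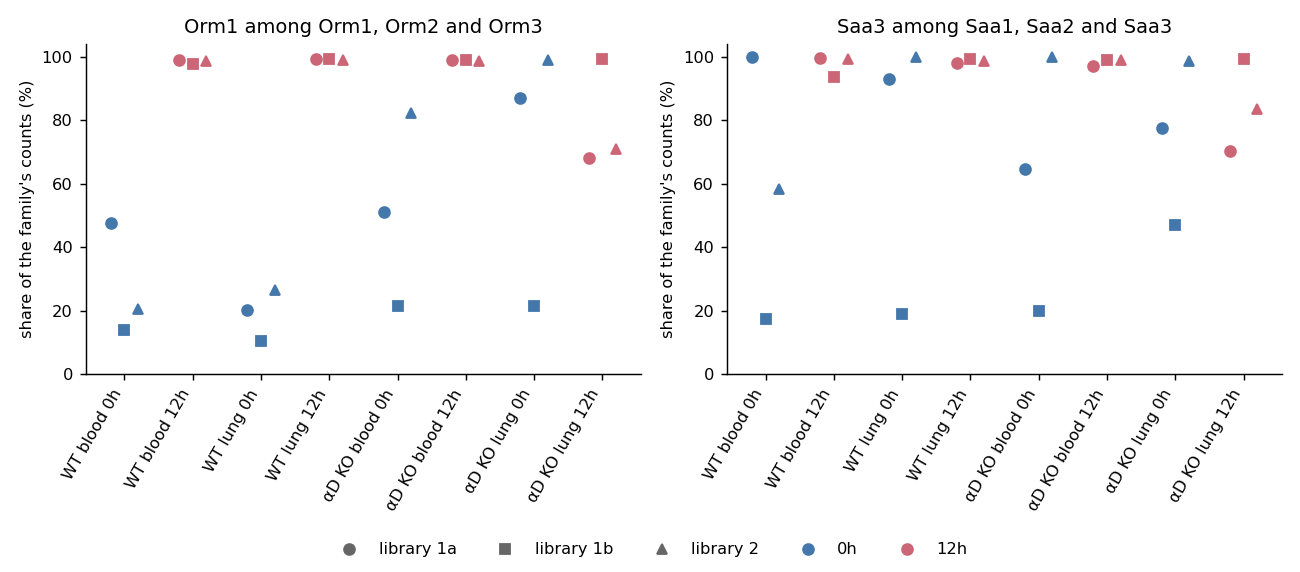
Share of each family's counts held by Orm1 (left) and by Saa3 (right), in percent, in each library of the 8 groups on the x axis; symbols give the library and colours the time. Outside the 3 lung libraries labelled αD KO that stood apart, the 12 h points sit at 93.5% or above in both panels, while the Orm1 shares at 0 h spread from 10.4% to 87.0%.

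Hp was abundant before surgery and rose less. Per kilobase of exon, its mean CPM ranked between 17 and 26 among the genes with counts in each of the 8 groups. In WT blood it was 4228, 1121 and 3322 CPM at 0 h and 10215, 3301 and 7471 CPM at 12 h in libraries 1a, 1b and 2, and the 2 times overlapped because library 1b at 12 h lay below libraries 1a and 2 at 0 h. In WT lung the 0 h values were 1227 to 2968 CPM and the 12 h values 3663 to 6423 CPM, without overlap. In blood labelled αD KO the means were 2600 CPM (SD 830, n = 3) at 0 h and 6223 CPM (SD 227, n = 3) at 12 h. The log2 fold changes were close to each other, at 1.07 (SE 0.55), 1.17 (SE 0.46) and 1.08 (SE 0.3) in these 3 comparisons. The change in lung labelled αD KO was 0.32 (SE 0.54), and 0.82 (SE 0.79) without the libraries that stood apart. The TMM factors, by which library totals are multiplied, were lower at 12 h in WT lung. In libraries 1a, 1b and 2 they were 0.9721, 1.4696 and 1.0172 at 0 h and 0.5569, 1.1753 and 0.6041 at 12 h. The size of a rise as small as that of Hp therefore depends on the use of such factors, and no fit without them was run.

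Lrg1 was already well expressed at 0 h and was higher at 12 h in WT mice. In WT blood it was 755, 164 and 503 CPM at 0 h and 4400, 3389 and 3588 CPM at 12 h in libraries 1a, 1b and 2. In WT lung it was 646, 206 and 433 CPM at 0 h and 3589, 2868 and 3068 CPM at 12 h. All 12 h libraries lay above all 0 h libraries in these groups, and the log2 fold changes were 2.85 (SE 0.55) in blood and 2.88 (SE 0.51) in lung. In blood labelled αD KO it was 801, 407 and 667 CPM at 0 h and 2967, 2377 and 2849 CPM at 12 h, a log2 fold change of 1.93 (SE 0.29). In lung labelled αD KO the values were 746, 380 and 1872 CPM at 0 h and 679, 2127 and 3374 CPM at 12 h. Library 2 at 12 h thus carried a 12 h level of Lrg1 while its Saa3 and Orm1 were at the 0 h level, unlike library 1a, in which all 3 genes were low. The log2 fold change was 1.16 (SE 0.74) with all libraries and 1.99 (SE 0.76) without the libraries that stood apart.

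Steap4 did not follow Saa3, Orm1, Hp and Lrg1. Its values overlapped between 0 h and 12 h in all 4 pairs of groups, as those of Orm2 also did. The log2 fold changes of Steap4 were -0.97 (SE 0.76) in WT blood, 0.31 (SE 0.7) in WT lung and -1.41 (SE 0.83) in blood labelled αD KO. In lung labelled αD KO the value was 0.96 (SE 0.56), and 0.34 (SE 0.72) without the libraries that stood apart. Without 1 library at a time the values ran from -1.89 to -0.52 in WT blood and from -0.8 to 0.53 in WT lung. With the αD KO label they ran from -3.31 to -0.96 in blood and from 0.55 to 1.59 in lung. In blood labelled αD KO at 12 h the libraries split, with 25.7 and 23.8 CPM in libraries 1a and 2 and 205 CPM in library 1b. In WT lung at 12 h library 1b was also the highest, with 155 and 103 CPM in libraries 1a and 2 and 356 CPM in library 1b. It was the lowest in WT blood at 12 h, at 15.8 CPM against 69.4 and 162 CPM in libraries 1a and 2, and lay between them in lung labelled αD KO at 12 h, at 315 CPM against 269 and 579 CPM. Its highest group mean, 387 CPM (SD 167, n = 3), was in lung labelled αD KO at 12 h.

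**Figure D2:**
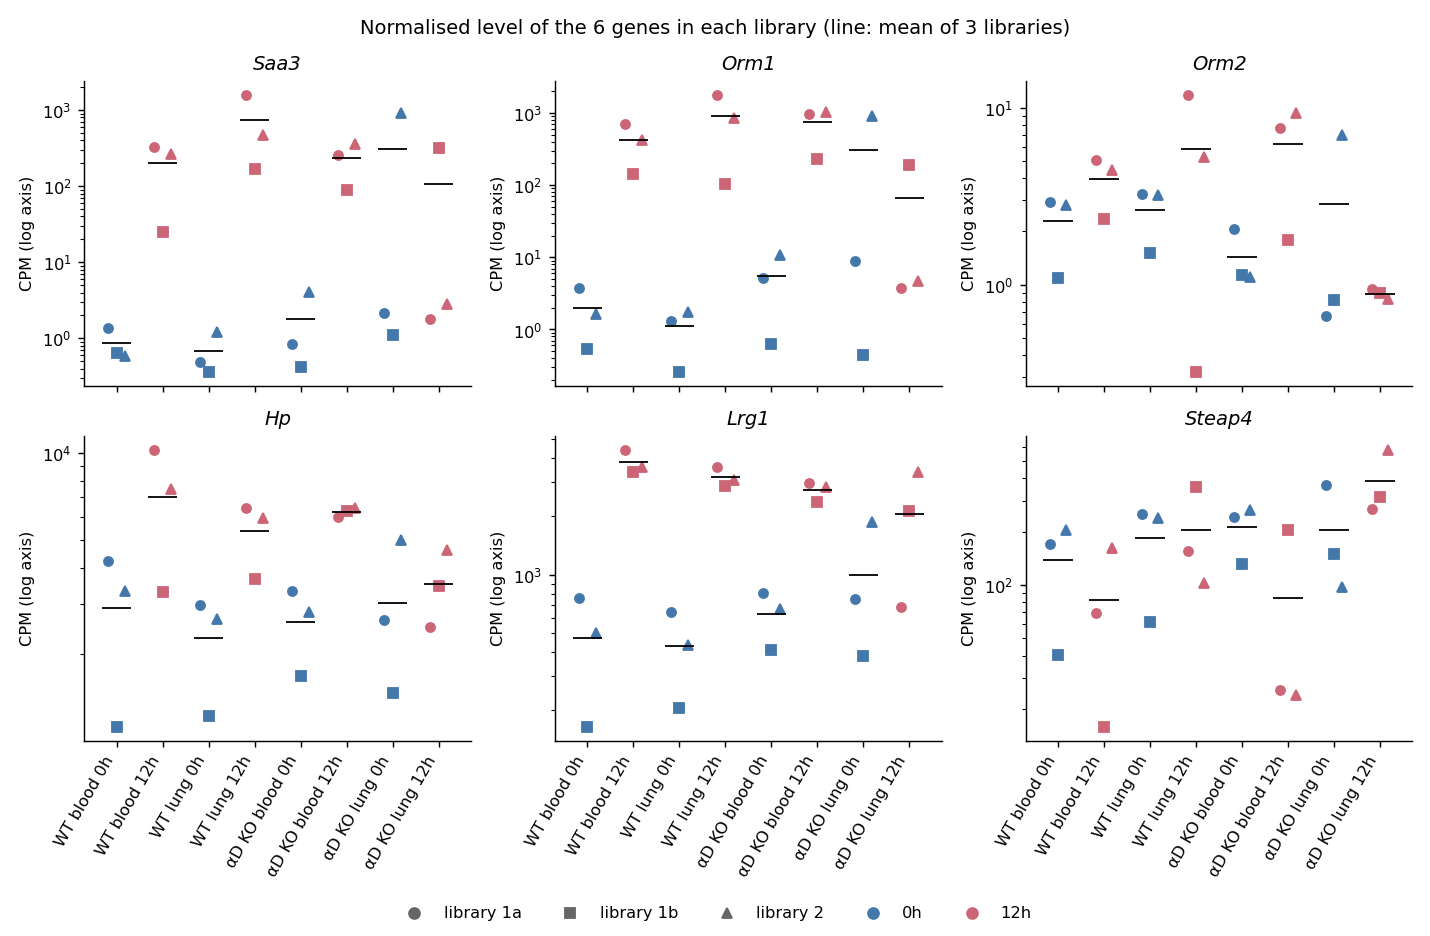
Level of each of the 6 genes in CPM on a log axis, in each library (symbols) of the 8 groups on the x axis, coloured by time, with a line at the mean of the 3 libraries. Saa3 and Orm1 differ by log2 fold changes of 6.78 or more between 0 h and 12 h in WT and in αD KO blood. For Saa3 and Orm1, 3 αD KO lung libraries sit at the level of the other time.

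Counted over the 6 genes, 3 (Saa3, Orm1 and Lrg1) were higher at 12 h without overlap of the libraries in WT blood, where 22.1% of the genes tested were. In WT lung and in blood labelled αD KO the count was 4, with Hp added, against 12.2% and 17.7% of the genes tested. In lung labelled αD KO the count was 0, against 0.937%. These counts come from the contrast that the genes were selected on and support nothing by themselves.

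**Figure D3:**
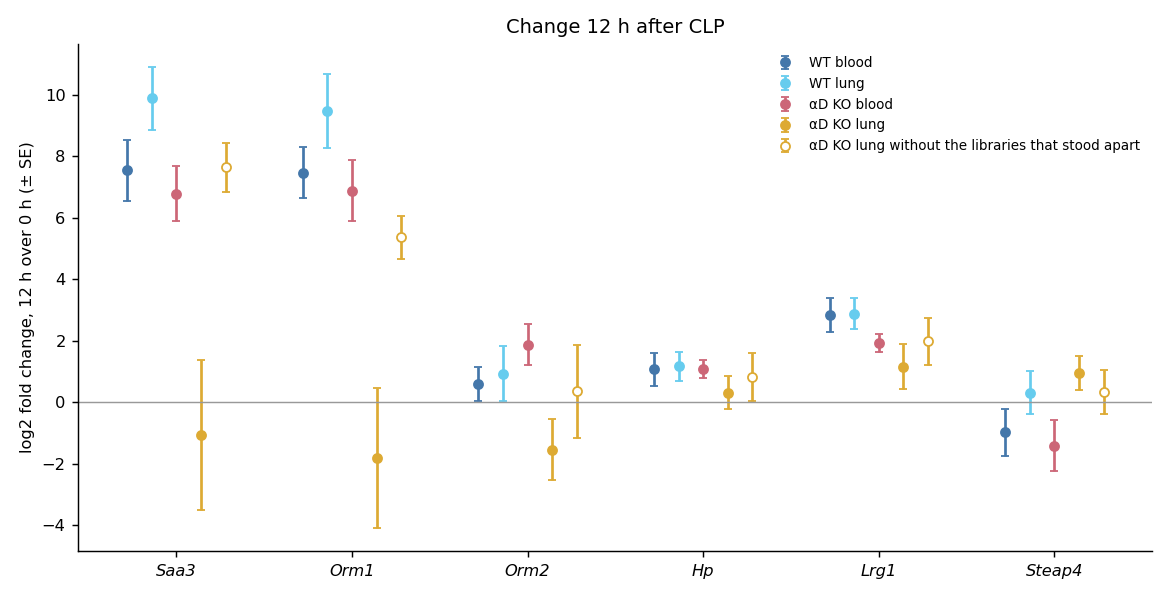
Fitted log2 fold change from 0 h to 12 h (points, with SE as bars) for the 6 genes in 4 tissue and genotype groups; open points leave out the 3 αD KO lung libraries that stood apart. Saa3 and Orm1 lie between 6.78 and 9.88 in 3 groups, Hp and Lrg1 between 1.07 and 2.88, and the filled αD KO lung points of Saa3 and Orm1 lie below 0.

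**Figure D4:**
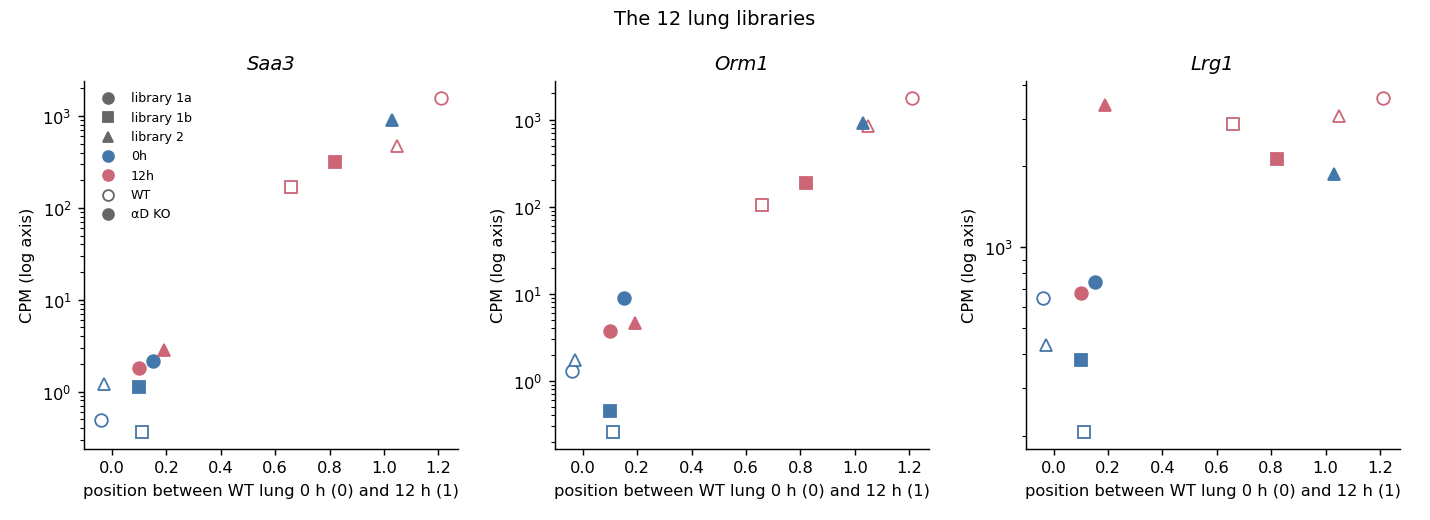
Level of Saa3, Orm1 and Lrg1 in CPM on a log axis in the 12 lung libraries, against the position of each library between WT lung at 0 h (0) and 12 h (1) on 1337 other genes; filled symbols are labelled αD KO. The αD KO 0 h library at 1.03 and the αD KO 12 h libraries at 0.1 and 0.19 carry the Saa3 and Orm1 levels of the other time.

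Libraries labelled αD KO were compared with libraries labelled WT in each tissue and at each time. None of the 6 genes was called between the genotype labels when a call needed a fold change above 1 on the log2 scale in size and an adjusted p below 0.05 (edgeR quasi-likelihood test, Benjamini-Hochberg over all genes tested), whereas 0.0115% of all genes were called in blood at 0 h, 0.0% in blood at 12 h, 0.0% in lung at 0 h and 0.0% in lung at 12 h. At an unadjusted p under 0.05 the counts of members were 0, 0, 2 and 1 in the same order, and DESeq2 called 0 in each but gave no adjusted p for Saa3 and Orm1 in lung at 0 h and for Orm2 in lung at 12 h. Over all genes, in the 3 comparisons without a call by edgeR, 505, 340 and 1390 genes had an unadjusted p under 0.05, and DESeq2 called 16, 6 and 192.

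In blood no estimate passed the test. At 12 h Saa3 was 234 CPM (SD 135, n = 3) with the αD KO label and 204 CPM (SD 159, n = 3) with the WT label, a log2 fold change of 0.25 (SE 0.74). For Orm1 the means were 742 CPM (SD 444, n = 3) and 427 CPM (SD 283, n = 3), a log2 fold change of 0.82 (SE 0.58). Lrg1 was the one member whose blood libraries did not overlap at 12 h, at 2377 to 2967 CPM with the αD KO label and 3389 to 4400 CPM with the WT label, and 7.93% of the genes tested had no overlap in either direction. Its log2 fold change was -0.48 (SE 0.25), with an edgeR adjusted p of 0.962. At 0 h in blood the log2 fold changes of the 6 genes ran from -0.64 (SE 0.73) for Orm2 to 1.46 (SE 1.04) for Orm1.

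In lung the estimates turned on the libraries that stood apart. At 0 h the log2 fold changes of Saa3 and Orm1 with the αD KO label were 8.57 (SE 2.69) and 7.93 (SE 2.55), both with an edgeR adjusted p of 0.983, and 1.29 (SE 0.99) and 2.14 (SE 1.24) without library 2 (adjusted p = 0.963 for both by edgeR). At 12 h they were -2.37 (SE 1.78) and -3.36 (SE 1.64), and -0.84 (SE 1.26) and -1.88 (SE 1.53) without libraries 1a and 2. The edgeR adjusted p values at 12 h were 0.73 for Saa3 and 0.613 for Orm1 with all libraries and 1.0 for both without them. Orm2 had a log2 fold change of -2.39 (SE 1.01, edgeR adjusted p = 0.598) in lung at 12 h, with all 3 libraries labelled αD KO under 1 CPM and the WT libraries at 11.8, 0.321 and 5.29 CPM. Without libraries 1a and 2 the Orm2 value was -2.28 (SE 1.94, edgeR adjusted p = 1.0). At 0 h Orm2 had a log2 fold change of -0.02 (SE 0.92), and of -1.79 (SE 0.77, edgeR adjusted p = 0.963) without library 2, and limma voom with all libraries called it at -1.92 (SE 0.53, adjusted p = 0.0467) beside 11.5% of all genes. The abundant members had smaller estimates. At 0 h Lrg1 was at 1.16 (SE 0.59) with library 2 and 0.45 (SE 0.57) without it, Hp at 0.36 (SE 0.48) and -0.1 (SE 0.56), and Steap4 at 0.21 (SE 0.66) and 0.55 (SE 0.67). At 12 h Lrg1 was at -0.46 (SE 0.61) with libraries 1a and 2 and -0.28 (SE 0.89) without them, Hp at -0.4 (SE 0.46) and -0.31 (SE 0.99), and Steap4 at 0.95 (SE 0.64) and 0.83 (SE 0.94). With libraries 1a and 2 alone, which leaves the pair that stood apart as the whole αD KO group at 12 h, 4 members (Saa3, Orm1, Orm2 and Steap4) were called there, with Saa3 at -8.62 (SE 0.67) and Orm1 at -8.14 (SE 0.53), and limma voom with library weights called the same 4. These settings called 4686 of 15574 and 3519 of 16764 of all genes in that comparison.

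**Figure D5:**
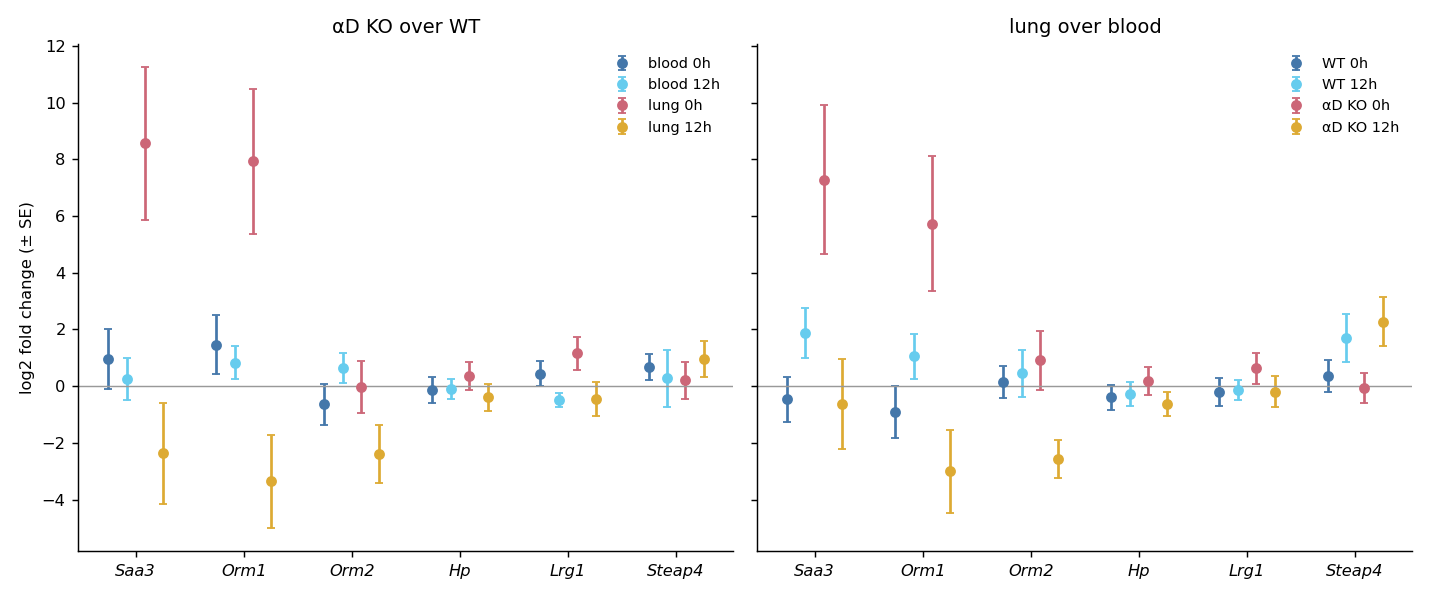
Fitted log2 fold change (points, with SE as bars) of the 6 genes for αD KO over WT labels in 4 tissue and time groups (left) and for lung over blood in 4 genotype and time groups (right), with all 3 libraries per group. The widest bars belong to Saa3 and Orm1 in the comparisons with αD KO lung, and edgeR called none of the differences plotted.

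Lung and blood neutrophils were compared within each genotype label and time. edgeR called none of the 6 genes in any of these 4 comparisons, against 0.0% of all genes tested in WT at 0 h, 0.0442% in WT at 12 h, 0.0% in αD KO at 0 h and 0.0548% in αD KO at 12 h. At an unadjusted p under 0.05 the counts of members were 0, 0, 2 and 2, and DESeq2 called 0, 0, 0 and 1. DESeq2 gave no adjusted p for Saa3 and Orm1 in αD KO at 0 h and for Orm1 in αD KO at 12 h. Over all genes at 12 h, 2454 of 13590 (WT) and 3240 of 14592 (αD KO) had an unadjusted p under 0.05, and DESeq2 called 8.28% and 10.3%. Over all genes at 0 h, where edgeR called none, 406 (WT) and 553 (αD KO) had an unadjusted p under 0.05, and DESeq2 called 47 and 108. The 2 members with an unadjusted p under 0.05 in αD KO at 0 h were Saa3 (log2 fold change 7.29, SE 2.62) and Orm1 (5.73, SE 2.38), both with an edgeR adjusted p of 1.0, and without library 2 of the lung group their log2 fold changes were 0.11 (SE 1.19) and 0.03 (SE 1.28). The other members also moved when that library was left out, Orm2 from 0.91 (SE 1.04) to -0.81 (SE 1.14), Hp from 0.18 (SE 0.48) to -0.17 (SE 0.54), Lrg1 from 0.63 (SE 0.55) to 0.03 (SE 0.49) and Steap4 from -0.06 (SE 0.52) to 0.47 (SE 0.5).

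In WT mice at 12 h, Saa3 was 742 CPM (SD 742, n = 3) in lung and 204 CPM (SD 159, n = 3) in blood, a log2 fold change of 1.87 (SE 0.88, edgeR adjusted p = 0.309). Orm1 was 913 CPM (SD 841, n = 3) in lung and 427 CPM (SD 283, n = 3) in blood, with a log2 fold change of 1.05 (SE 0.78). Hp and Lrg1, the abundant members, were close in both tissues, at -0.28 (SE 0.42) and -0.15 (SE 0.35). Steap4 was 205 CPM (SD 134, n = 3) in lung and 82.4 CPM (SD 74, n = 3) in blood, a log2 fold change of 1.71 (SE 0.84, edgeR adjusted p = 0.323). Without 1 library at a time these values ran from 0.85 to 2.56 for Saa3, from 0.24 to 1.77 for Orm1 and from 0.57 to 2.52 for Steap4. Over libraries 1a and 2 alone edgeR called Saa3, with a log2 fold change of 1.75 (SE 0.48), beside 28.2% of all genes.

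With the αD KO label at 12 h, the libraries of lung and blood did not overlap for 4 of the 6 genes, in a comparison in which 28.8% of all genes tested did not overlap. Orm1, Orm2 and Hp were lower in lung and Steap4 was higher. Orm2 was 0.939, 0.895 and 0.83 CPM in lung and 7.71, 1.79 and 9.29 CPM in blood, a log2 fold change of -2.57 (SE 0.67, edgeR adjusted p = 0.105), and DESeq2 called it (adjusted p = 0.00595). Steap4 was 269, 315 and 579 CPM in lung and 25.7, 205 and 23.8 CPM in blood, a log2 fold change of 2.28 (SE 0.88, edgeR adjusted p = 0.185). Orm1 had a log2 fold change of -3.0 (SE 1.46, edgeR adjusted p = 0.262). With library 1b as the only lung library, the log2 fold changes were -2.65 (SE 1.15) for Orm2, 1.97 (SE 1.09) for Steap4 and -1.84 (SE 0.85) for Orm1, and Saa3 turned from -0.63 (SE 1.58) to 0.57 (SE 0.68). The edgeR adjusted p values of these 4 genes without the libraries that stood apart were 0.43, 0.444, 0.43 and 0.661. Hp was at -0.63 (SE 0.42) with all libraries and -0.73 (SE 0.45) without them, and Lrg1 at -0.19 (SE 0.56) and -0.24 (SE 0.45). Leaving out library 1b of the lung group, which leaves only the 2 lung libraries that stood apart, raised the count of members called to 3, beside 11.2% of all genes. Leaving out library 1b of the blood group raised it to 2, beside 2.64%.

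Ordered by mean CPM over the 8 groups, neighbouring groups overlapped in nearly all cases. Saa3 and Orm1 were both highest in WT lung at 12 h and lowest in WT lung at 0 h, and Lrg1 was highest in WT blood at 12 h (3792 CPM, SD 536, n = 3) and lowest in WT lung at 0 h (429 CPM, SD 220, n = 3). Hp had the same ends, at 6996 CPM (SD 3481, n = 3) and 2281 CPM (SD 927, n = 3). Of all neighbours in these orders, only the last step of Orm2 (blood labelled αD KO at 0 h above lung labelled αD KO at 12 h) and the first step of Steap4 (lung labelled αD KO at 12 h above blood labelled αD KO at 0 h) had libraries that did not overlap. Both steps involve the group with 2 of the libraries that stood apart. Its library 1b, at 0.895 CPM for Orm2 and 315 CPM for Steap4, also lay outside the blood libraries, which held 1.11 to 2.06 CPM and 131 to 266 CPM.

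Markers of cells that could be mixed into the sort were read in the same libraries. The 14 hepatocyte genes summed to between 63.5 and 202 CPM at 0 h and between 25.2 and 129 CPM at 12 h, with Trf, which many cells express, between 15.6 and 202 CPM. Alb was at most 8.06 CPM, Apoa1 at most 0.744 CPM and Ttr at most 0.635 CPM in any of the 24 libraries. The ranges of the summed level overlapped between the times, and the part of these genes in the levels of the 6 genes was not tested. The 15 genes of monocytes and macrophages summed to between 579 and 2799 CPM at 0 h and between 609 and 1520 CPM at 12 h, and the 15 lung structural genes to at most 1155 CPM, in library 1a of lung labelled αD KO at 0 h. The 10 genes of other blood cells summed to between 114 and 7259 CPM at 0 h and between 79.5 and 4173 CPM at 12 h.

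The 13 genes of immature neutrophils and granules (such as Camp, Ngp, Ltf and Mmp8) had higher sums in most 12 h libraries, in which Saa3, Orm1 and Lrg1 were also high. They summed to between 601 and 21074 CPM in the 0 h libraries and between 17907 and 150238 CPM in the 12 h libraries once those that stood apart were left out. The ranges overlapped, since library 1b of lung labelled αD KO at 12 h (17907 CPM) lay below 3 libraries labelled αD KO at 0 h, at 21074 and 20340 CPM in blood and 18325 CPM in lung. Library 2 of lung labelled αD KO at 0 h held 57642 CPM, and libraries 1a and 2 of that tissue and label at 12 h held 9048 and 12983 CPM. The 8 neutrophil markers had higher sums too, from between 29133 and 62675 CPM at 0 h to between 75209 and 196626 CPM at 12 h outside those libraries, although Csf3r, one of the 8, was called lower at 12 h in WT blood, WT lung and blood labelled αD KO. The part of these shifts in the levels of the 6 genes was not tested.

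The rest of the acute-phase pathway was read from 3 lists of 91 genes. The lists were chosen with earlier results of these data known, so the counts called are no independent support. In WT blood 67 of them were tested, and edgeR called 15 higher and 4 lower at 12 h, against 7.75% and 5.75% of all genes tested. In WT lung 12 of 73 were called higher and 3 lower, against 5.24% and 3.78%. In blood labelled αD KO the calls were 12 higher and 4 lower of 65, against 3.75% and 4.99%. In lung labelled αD KO none of 75 was called in either direction, against 0.0% higher and 0.0% lower over all genes, where DESeq2 called 0 genes and 72 of the 17939 genes had an unadjusted p under 0.05. The estimates there turned on the libraries that stood apart. Without them, with 1 library left at 12 h, the log2 fold change of Lcn2 went from 0.05 to 3.85. That of Csf3 went from -1.64 to 7.01, and both are a description.

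Among the other acute-phase proteins (27 genes, 8 to 15 tested), Lcn2, Lbp and C3 rose in WT blood, WT lung and blood labelled αD KO, and no gene of the list was called lower. Lcn2, an iron-carrier-binding lipocalin related to the orosomucoids, went from 432 CPM (SD 171, n = 3) to 19201 CPM (SD 4845, n = 3) in WT blood, a log2 fold change of 5.29 (SE 0.51, edgeR adjusted p = 0.00205). In WT lung it rose by 5.66 (SE 0.63, edgeR adjusted p = 0.00492). Lbp, the lipopolysaccharide-binding protein, went from 4.35 CPM (SD 0.874, n = 3) to 114 CPM (SD 5.55, n = 3) in WT blood, a log2 fold change of 4.51 (SE 0.32, edgeR adjusted p = 0.00128). The close relatives of the members did not pass the test. Saa1 in WT lung had a log2 fold change of 5.95 (SE 1.56, edgeR adjusted p = 0.0512), from 0.15 CPM (SD 0.228, n = 3) to 10.7 CPM (SD 14, n = 3), and there Saa2 had one of 2.61 (SE 1.69) and Orm3 one of 0.38 (SE 0.75).

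Of the 37 inducers, receptors and transcription factors, 33 to 35 were tested. Csf3 (granulocyte colony-stimulating factor), Tnf and the decoy receptor Il1r2 rose in WT blood, WT lung and blood labelled αD KO, and Csf3r fell in all 3. Il1a also rose in both WT comparisons. Nfkbia, an inhibitor of NF-κB, rose in blood labelled αD KO by 2.79 on the log2 scale (SE 0.3, edgeR adjusted p = 0.00345). Csf3 in WT lung went from 0.341 CPM (SD 0.198, n = 3) to 205 CPM (SD 226, n = 3), a log2 fold change of 9.0 (SE 1.71, edgeR adjusted p = 0.0213). Il1b fell in WT blood from 4506 CPM (SD 1944, n = 3) to 680 CPM (SD 479, n = 3), a log2 fold change of -2.91 (SE 0.59, edgeR adjusted p = 0.0195), and in blood labelled αD KO by 1.89 on the log2 scale (SE 0.35, edgeR adjusted p = 0.0188), while in WT lung its log2 fold change was 0.41 (SE 0.74, edgeR adjusted p = 0.782). Il6 transcripts stayed at or under 1.89 CPM as group means. Stat3, the transcription factor below the interleukin 6 receptor, had log2 fold changes of 0.06 (SE 0.38) in WT blood and 0.64 (SE 0.38) in WT lung, and Il6ra of -0.22 (SE 0.4) and 0.66 (SE 0.38), none of them called. The receptor subunit Il6st had log2 fold changes of -1.44 (SE 0.53) in WT blood and 0.57 (SE 0.8) in WT lung, and the feedback inhibitor Socs3 of -0.77 (SE 0.43) and 1.5 (SE 0.65), also not called. Cebpb had a log2 fold change of 2.66 (SE 0.86, edgeR adjusted p = 0.0906) in WT lung. It was -0.94 (SE 1.09) in WT blood and 2.33 (SE 1.8) in blood labelled αD KO, and Cebpb was called in none of them. Cebpd fell in WT blood by 1.97 on the log2 scale (SE 0.39, edgeR adjusted p = 0.0182).

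Among the 27 binding partners and relatives (24 to 26 tested), Fpr2, a receptor that binds serum amyloid A, rose in all 3 comparisons, from 88.6 CPM (SD 29.1, n = 3) to 936 CPM (SD 398, n = 3) in WT blood (log2 fold change 3.18, SE 0.42, edgeR adjusted p = 0.00467). Its relative Fpr1, a receptor for bacterial formyl peptides, rose in WT blood by 2.52 (SE 0.55, edgeR adjusted p = 0.0246) and in blood labelled αD KO by 2.3 (SE 0.43, edgeR adjusted p = 0.0192) on the log2 scale. Hmox1, which breaks down haem, rose in WT lung by 2.84 (SE 0.69, edgeR adjusted p = 0.0409), and Fth1, a ferritin chain that stores iron, rose in blood labelled αD KO by 1.69 (SE 0.34, edgeR adjusted p = 0.0258). Acvrl1, the TGF-β family receptor ALK1 through which Lrg1 protein acts on endothelium, rose in both WT comparisons, by 3.97 (SE 0.52, edgeR adjusted p = 0.00465) in blood and 3.24 (SE 0.74, edgeR adjusted p = 0.0349) in lung on the log2 scale. Slc40a1, the iron exporter ferroportin, fell in all 3, with log2 fold changes of -2.65 (SE 0.48, edgeR adjusted p = 0.0141), -2.61 (SE 0.62, edgeR adjusted p = 0.0394) and -2.67 (SE 0.34, edgeR adjusted p = 0.0054). Cd163, the haptoglobin-haemoglobin receptor of macrophages, was between 0.463 and 1.29 CPM as group means and was not called. Steap3, a relative of Steap4, had group means at or under 1.01 CPM. The counts over the 3 lists rest on few libraries: without 1 library at a time they ran from 0 to 24 in WT blood, from 0 to 37 in WT lung and from 2 to 21 in blood labelled αD KO.

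The genes whose pattern over the 24 libraries was most like each member, among 8234 genes with a mean of at least 5 CPM, were found by Pearson r on log2 CPM. The libraries share their groups, their depth and the split between 0 h and 12 h, so these values are a description. For Saa3 they were Ikbke (0.985), Orm1 (0.972) and Qsox1 (0.97), and those for Orm1 included Qsox1 (0.977) and Id2 (0.974). For Lrg1 they were Glrx (0.955), Atxn10 (0.953) and Ncf4 (0.952), and for Hp Ostf1 (0.968), Sft2d1 (0.966) and Cfl1 (0.964). Orm2 was nearest to Vcpip1 (0.927), Thrap3 (0.923) and Mtmr12 (0.904). Steap4 had no gene above 0.755 (Mov10), and its r with the other 5 members lay between -0.504 and -0.057.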

How the data were processed

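Messenger RNA of sorted neutrophils was measured by RNA-seq in 24 libraries of 16 samples, 3 libraries in each of 8 groups given by the labels (genotype, tissue and treatment). The deposited values are counts of reads per gene and were not normalised by the authors. Per the study's methods, cDNA was made with SMART-Seq v4 and Nextera XT and sequenced as paired reads, and only unique reads within exons were counted. The submitters' processing notes name Trimmomatic 0.36, STAR 2.5.2b and the builds GRCm38 and mm10. The counting tool and the use of strand are not given in the sources used here. Every file held 49315 genes.

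Each of the 12 comparisons was fitted to its 2 groups with edgeR 4.0.16 (R 4.3.3) after filterByExpr and TMM scaling, with the quasi-likelihood test and Benjamini-Hochberg adjustment over all genes tested. A call needed an adjusted p below 0.05 and a fold change above 1 on the log2 scale in size. Levels are CPM with TMM factors, and log2 CPM used a prior count of 1. The scripts were tested on simulated data. Alternatives were DESeq2 1.42.0, limma 3.58.1 voom with quality weights, other scaling, no filter, a joint fit of all 8 groups, sample 1 summed, libraries 1a and 2 alone, each library left out, the 3 libraries that stood apart left out, and the library number as a replicate block. The settings without the libraries that stood apart and with libraries 1a and 2 alone were chosen after seeing the data.

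The members and lists were chosen with earlier results of these data known. By a fixed rule the text names the 6 members, Itgad, 15 pathway genes in every case, up to 4 called genes per list and comparison with the largest fold change, and the 3 genes most like each member. For Steap4 only the nearest of these is named. One of the genes most like a member is not reported here. Other names were chosen after their values were seen. Samples 1 and 2 carry the same numbers in all groups. Deviations from the group means correlated above 0.1 for all 3 library numbers in 5 of the 12 comparisons (both tissue comparisons at 12 h, αD KO against WT in blood at 0 h, 12 h against 0 h in WT blood and in αD KO lung), but the labels tie no number to a shared animal, litter or day. Promoter sequences are those of RefSeq (GRCm38.p6), and gene structures and the Orm sequences those of GRCm38 with GENCODE M21. With 3 libraries per group, the spread between libraries set the SE of each fold change, and depth was 5753476 to 29984954 counts per library. Binomial intervals are Wilson intervals at 95%.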

Additional observations from a re-analysis of the deposited data

How the results depend on the processing

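For the members between groups, the count called by edgeR was 0 in all 8 comparisons and stayed 0 under most alternatives. limma voom with quality weights called 1 in αD KO against WT lung at 0 h, 4 in lung at 12 h, and 4 in lung against blood of αD KO at 12 h. Libraries 1a and 2 alone gave 4 in αD KO against WT lung at 12 h, 1 in lung against blood of WT at 12 h and 4 of αD KO at 12 h. In that last comparison no filter gave 3, DESeq2 1 and summing sample 1 gave 2, and leaving out 1 library gave 0 to 3 (2 without blood library 1b, 3 without lung library 1b). These settings also called more of all genes. In lung against blood of αD KO at 12 h the shares were 33.5% (voom), 34.3% (1a and 2 alone), 3.13% (no filter), 10.3% (DESeq2) and 8.27% (summed). The cause was not tested. With RLE scaling or with library totals alone, 87 mean CPM values of the members by group changed by less than their SD, and 9 changed by more.

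Pathway genes called with time numbered 19 in WT blood, where no filter gave 6, the fit of all 8 groups 8 and libraries 1a and 2 alone 29. In WT lung the count of 15 became 35 with DESeq2, 5 with all 8 groups, 33 with sample 1 summed, 47 with voom and 47 with libraries 1a and 2 alone. In αD KO blood 16 became 0 with all 8 groups and 27 with voom, and in αD KO lung 0 became 5 without the libraries that stood apart, which is no independent test, since those libraries were set apart by genes called with time, and 1 library was left at 12 h. That fit called 0.759% of all genes higher and 0.647% lower. Leaving out 1 library gave 0 to 24 in WT blood (1 without 0 h 1a, 0 h 2 or 12 h 1a, 0 without 12 h 2). In WT lung it gave 0 to 37 (6 without 0 h 1b, 37 without 12 h 1b, 0 without any of the other 4). In αD KO blood it gave 2 to 21 (2 without 0 h 1a, 8 without 0 h 2 or 12 h 1a, 3 without 12 h 2), and in αD KO lung 0 to 0. With the library number as a replicate block, members called were 0 in all 8 comparisons and pathway genes 22, 12, 17 and 0, so that the paired fit changed no count by over 1.5 times.

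Small log2 fold changes turned. For αD KO against WT, Steap4 in blood at 12 h became -0.62 (sample 1 summed), -0.58 (replicate block), -1.54 (voom) and -2.21 (1a and 2 alone). Orm2 in lung at 0 h became 0.09 (RLE scaling and DESeq2), 0.14 (no filter), 0.10 (all 8 groups), 0.49 (summed) and 0.27 (1a and 2 alone), and Hp there -0.09 (voom) and -0.10 (without the library that stood apart). For lung against blood, voom gave 0.14 for Saa3 and 0.08 for Lrg1 in WT at 0 h, and the block -0.11 for Orm2 in WT at 12 h. In αD KO at 0 h, voom gave -1.17 for Orm2, -0.25 for Hp, -0.04 for Lrg1 and 0.38 for Steap4. There, omitting the library that stood apart gave -0.81, -0.17 and 0.47 for Orm2, Hp and Steap4, and RLE scaling and DESeq2 0.02 for Steap4. Saa3 in αD KO at 12 h became 0.57 without the libraries that stood apart.

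Without 1 library at a time, αD KO against WT ranged in blood at 0 h from -0.33 to 1.39 (Saa3) and -0.48 to 0.18 (Hp), and in blood at 12 h from -0.26 to 0.70 (Saa3), -0.37 to 0.18 (Hp) and -1.76 to 1.09 (Steap4). In lung at 0 h it ranged from -1.79 to 0.43 (Orm2), -0.10 to 0.71 (Hp) and -0.45 to 0.55 (Steap4). Lung against blood ranged in WT at 0 h from -0.95 to 0.05 (Saa3), -0.07 to 0.43 (Orm2) and -0.56 to 0.29 (Lrg1), and in WT at 12 h from -0.46 to 0.97 (Orm2) and -0.49 to 0.12 (Hp). In αD KO it ranged at 0 h from -0.81 to 1.46 (Orm2), -0.17 to 0.56 (Hp) and -0.70 to 0.47 (Steap4), and at 12 h from -0.64 to 0.22 (Lrg1). With time in lung labelled αD KO it ranged from -7.0 to 6.09 (Saa3), -6.17 to 3.86 (Orm1) and -2.14 to 0.31 (Orm2).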
